A study of Mus musculus with 6 samples.

Results

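Nogo-A, oligodendrocyte-myelin glycoprotein and their receptors form a signalling route by which myelin restrains axon growth. Genes grouped with that route were read out in optic nerves after sham surgery or optic nerve crush (ON-CR). The 9 genes were chosen by symbol: the ligands Rtn4 and Omg, the receptors Rtn4r, Rtn4rl1 and Rtn4rl2, the co-receptor Lingo1, the inhibitory receptor gene Lilrb4a, and the effectors Rhoa and Rock2. Of these, 8 were found among the 25755 genes of the deposited table. Lilrb4a encodes an inhibitory receptor of myeloid cells and mast cells, and whether its product takes part in this route was not tested. Rtn4rl2, on GRCm38 at chr2:84871924-84886710, was not analysed here.

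Bulk RNA sequencing covered the optic nerves of 6 mice, of which mice 1 to 3 had a sham operation and mice 4 to 6 had ON-CR. All 6 were Nf1flox/flox; hGFAP-Cre mice, in which Cre recombinase under the human GFAP promoter removes Nf1 from neuroglial progenitors and their descendants, so both groups carried the Nf1 loss and neither had Nf1 intact in those cells. Surgery was performed at 6 weeks of age, a sham operation being the incision with no crush, and the nerves were labelled as taken at 3 months. The comparison asks which genes of the nerve differ in RNA level several weeks after the crush. The paper reports that ON-CR led to optic gliomas in mice of this genotype, with larger nerves and more proliferating cells than after sham surgery. The comparison therefore does not separate injury from tumour formation. Each library is labelled as 1 mouse, and the sources used here do not say whether nerves of both sides were pooled. The paper's methods for RNA extraction and PCR give more than 1 mouse per sample. Whether this held for the sequenced libraries is not stated.

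Myelin-forming oligodendrocytes present Nogo-A (from Rtn4), myelin-associated glycoprotein (Mag) and oligodendrocyte-myelin glycoprotein (Omg) on the membranes that face the axon. The Nogo receptor, a protein tethered to the outer leaflet of the neuronal membrane, binds all of these and signals through LINGO1 with p75NTR or TROY to the small GTPase RhoA and its kinases ROCK1 and ROCK2, which act on the cytoskeleton of the growth cone. In the optic nerve, the axons are those of retinal ganglion cells, whose cell bodies lie in the retina, so receptor transcripts made in those cell bodies would mostly lie outside the dissected nerve.

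The values are normalized values per gene, that is, estimated reads divided by 1 factor per library, with 1 read worth 0.885 to 1.06. The libraries held 17414035 to 23620997 estimated reads, and 3 reads corresponded to a value of 2.66 to 3.18. Differences are given as log2 fold changes of (value + 1), ON-CR minus sham, from limma fitted on all 25755 genes, and a gene is called at a Benjamini-Hochberg adjusted p at or under 0.05. Across all genes 2.1% were called, 0.971% as higher and 1.13% as lower after ON-CR, and for 21.6% the groups did not overlap. Sex-linked transcripts also differed: the X-linked Xist was 16.7, 2.14 and 30.9 in sham mice 1 to 3 and 2708, 6357 and 6131 in ON-CR mice 4 to 6, and the Y-linked Ddx3y was 1645, 1291 and 1544 in the sham mice and 976, 4.19 and 0 in the ON-CR mice. The labels give no sex, and sex and surgery cannot be told apart. The library labelled ON-CR mouse 4 held both transcripts at high values, unlike the other 5, and whether it holds RNA of more than 1 mouse was not tested. Without that library, Omg had a log2 fold change of -0.86 (limma adjusted p = 0.0299), Lilrb4a 1.54 (adjusted p = 0.0851) and Rock2 0.34 (adjusted p = 0.359). That fit left no ON-CR library with a high Ddx3y value, so it does not separate sex from surgery either. Oligodendrocyte markers were abundant in all 6 libraries.

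Of the 8 genes, 1 was called lower (Omg) and 1 higher (Lilrb4a) after ON-CR, and the other 6 did not pass the test, against 2.1% called among all genes. Values of sham and ON-CR mice were apart for 3 of the 8 (Omg, Lilrb4a and Rock2), and this was so for 21.6% of all genes. The median log2 fold change was 0.08 for the 8 genes and 0.03 for all genes tested. Both calls were lost when some single mice were left out, as given with each gene. With 3 mice against 3, an exact permutation test of one gene cannot give a p below 0.1.

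**Figure D1:**
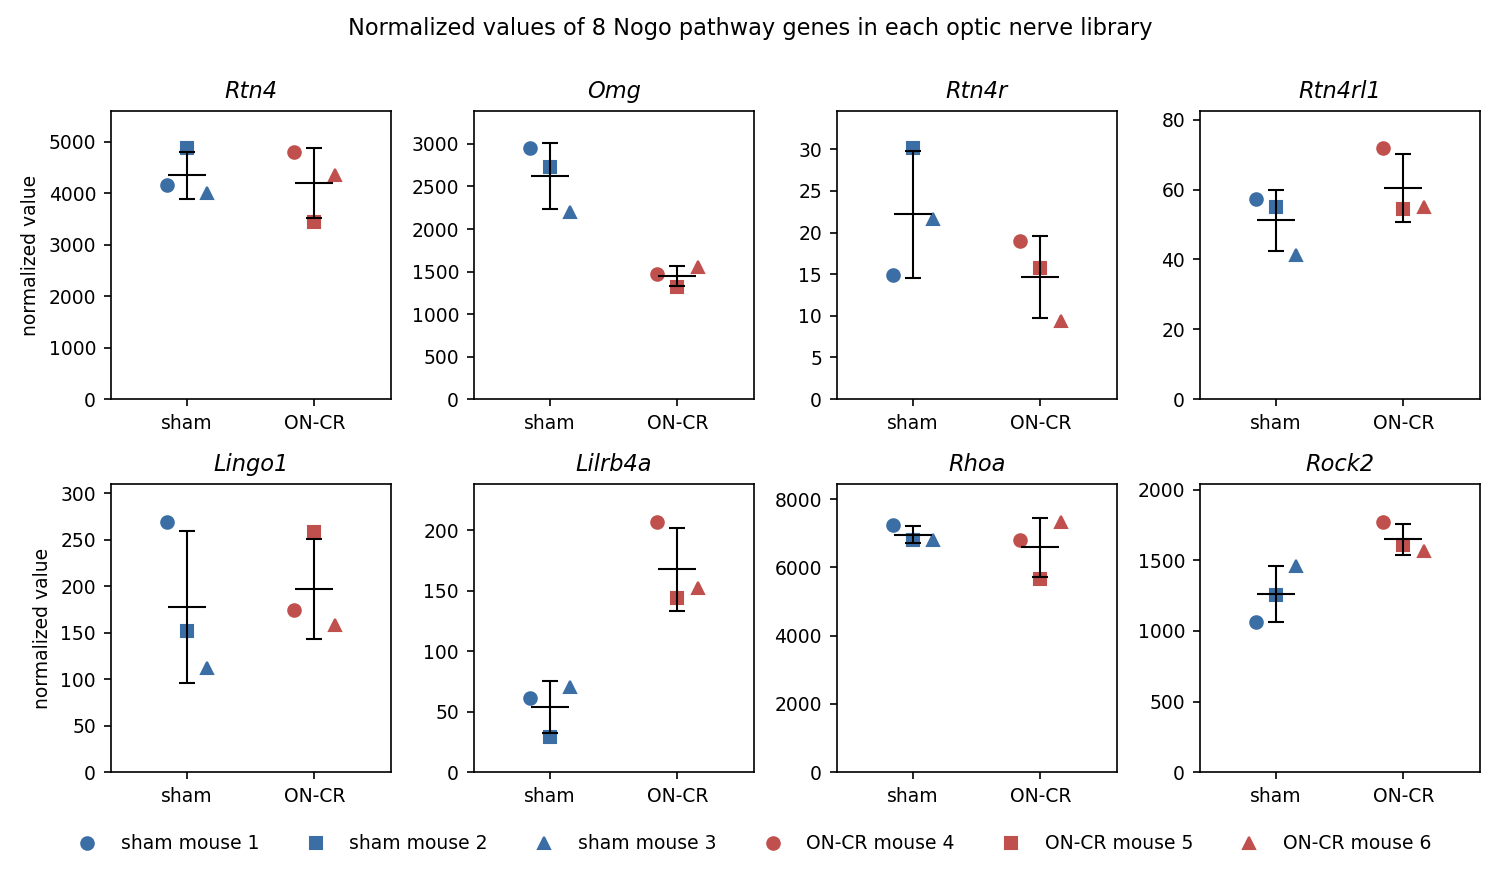
Normalized value (vertical axis, linear, from 0) of each of the 8 genes in the 3 sham (blue) and 3 ON-CR (red) libraries. Each symbol is 1 mouse, and bars give the mean and SD. The groups are apart for Omg, Lilrb4a and Rock2, and they overlap for the other 5 genes.

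**Figure D2:**
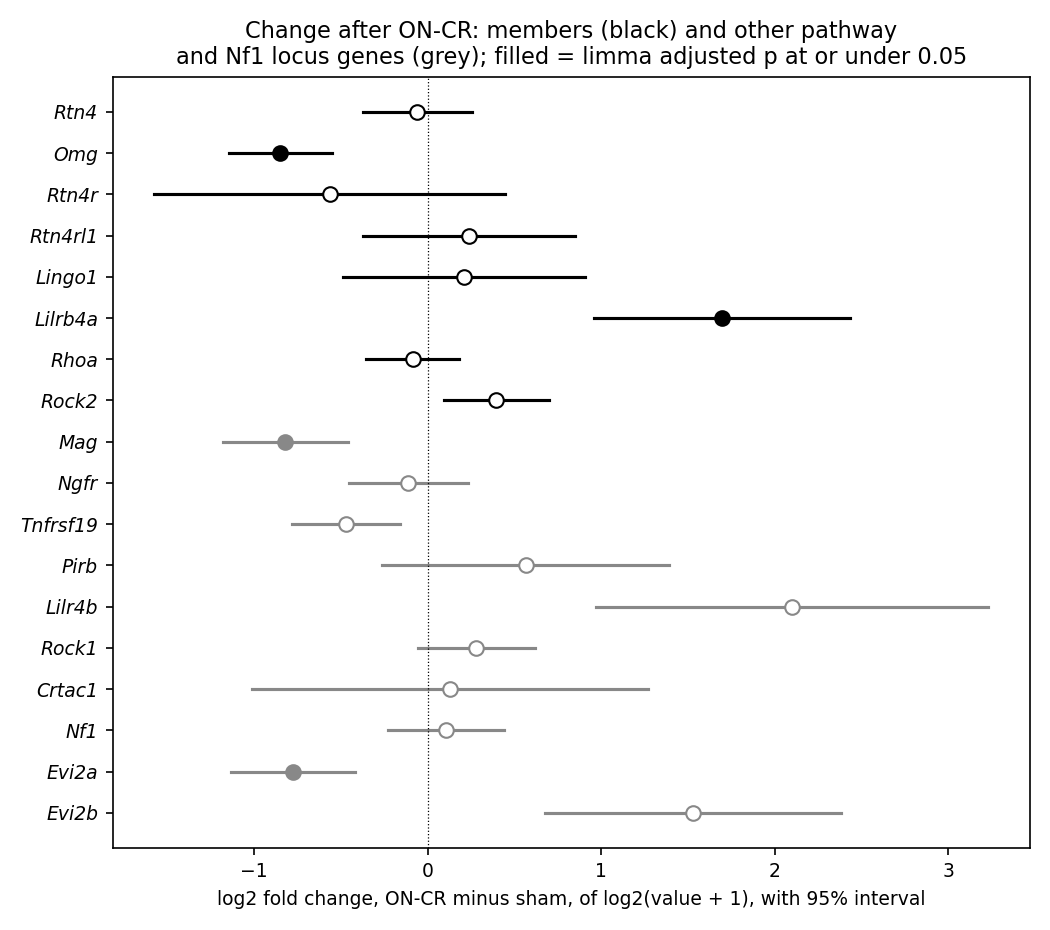
Log2 fold change, ON-CR minus sham, of log2(value + 1) with its 95% interval (horizontal axis) for the 8 genes (black) and for other genes of the pathway and of the Nf1 locus (grey). Filled circles have a limma adjusted p at or under 0.05: Omg at -0.85, Lilrb4a at 1.70, Mag at -0.82 and Evi2a at -0.78.

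Rtn4 encodes the reticulon Nogo, whose longest isoform, Nogo-A, is the myelin-associated inhibitor. It lies at chr11:29692947-29744331 on the plus strand, where 6 protein-coding transcripts are annotated, and the table does not separate Nogo-A from the shorter isoforms. Its values were 4164, 4868 and 4012 in sham mice 1 to 3 and 4797, 3448 and 4347 in ON-CR mice 4 to 6. The groups overlapped, with the highest value in sham mouse 2 and the lowest in ON-CR mouse 5. The means were 4348 ± 456 (SD, n = 3) and 4197 ± 687 (SD, n = 3). The log2 fold change was -0.06, with a 95% interval from -0.37 to 0.25 and a limma adjusted p of 0.886, and it turned to 0.07 when values were scaled by library size only, to 0.02 without sham mouse 2 and to 0.08 without ON-CR mouse 5. Exons of Rtn4 share 1284 bases with those of Eml6 on the opposite strand, and the sum of both genes gave a log2 fold change of -0.05 (limma adjusted p = 0.895).

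Omg, the gene of the oligodendrocyte-myelin glycoprotein, fell after ON-CR. This glycoprotein is anchored to the outer face of the membrane and is the second ligand of the Nogo receptor among the 9 genes. Omg occupies chr11:79500982-79504084 on the minus strand, inside an intron of Nf1, the gene that was floxed in all mice. Its values were 2947, 2724 and 2197 in the sham mice and 1469, 1323 and 1556 in the ON-CR mice. The lowest sham value lay above the highest ON-CR value. The sham mean was 2623 ± 385 and the ON-CR mean 1449 ± 118 (SD, n = 3 each). On the log2 scale the difference was -0.85 (SE 0.13; 95% interval -1.14 to -0.55), or 0.556 times the sham level, with a limma adjusted p of 0.0118. The exact permutation p was 0.1, the smallest that 3 against 3 allows. The adjusted p from limma rose to 0.0621 without sham mouse 1, 0.0899 without sham mouse 2 and 0.0789 without ON-CR mouse 6, with log2 fold changes between -0.97 and -0.76 over all 6 leave-one-out fits. None of its 50-base stretches is shared with the transcripts of another annotated gene.

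Omg was set beside markers of oligodendrocytes, because whole nerves can hold unequal amounts of the RNA of these cells. Which cells gave the RNA of Omg here was not tested. Of 12 markers of mature oligodendrocytes, 8 were called lower and 0 higher. Their summed value, dominated by Mbp, ran from 1341730 to 1901580 in sham libraries and from 668476 to 801749 in ON-CR libraries. The groups overlapped for Apod, at a log2 fold change of 0.07 (limma adjusted p = 0.886), and for Opalin, at -0.44 (limma adjusted p = 0.246). In bulk samples, fewer cells of a type and less RNA per cell cannot be told apart. The mean log2(value + 1) of the 12 markers was 14.85, 14.95 and 14.61 in the sham mice and 14.19, 13.77 and 14.07 in the ON-CR mice, a difference of -0.79 (exact permutation p = 0.1). Relative to that mean, Omg stood at -3.33, -3.53 and -3.51 on the log2 scale in the sham mice and at -3.67, -3.40 and -3.47 in the ON-CR mice. These relative levels overlapped, and their means differed by -0.06 (exact permutation p = 0.6), a difference that turned to 0.0071 without sham mouse 1 and to 0.021 without ON-CR mouse 4. The level of Omg relative to oligodendrocyte markers thus differed between groups by less than the spread between mice, while its level per library did not overlap.

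Rtn4 was arranged differently. Relative to the same 12 markers it stood at -2.83, -2.70 and -2.64 on the log2 scale in the sham mice and at -1.96, -2.02 and -1.99 in the ON-CR mice. All 3 ON-CR values were above all 3 sham values, with a difference of 0.73 (exact permutation p = 0.1, the smallest possible). That difference is the log2 fold change of Rtn4 (-0.06) minus the change of the marker mean (-0.79). It therefore mostly restates the fall of the markers. The value of Rtn4 divided by that of Omg was 1.41, 1.79 and 1.83 in the sham mice and 3.27, 2.61 and 2.79 in the ON-CR mice. This ratio likewise mostly restates the fall of Omg. Rtn4 is also expressed in neurons and many other cells, and which cells gave its RNA here was not tested.

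**Figure D3:**
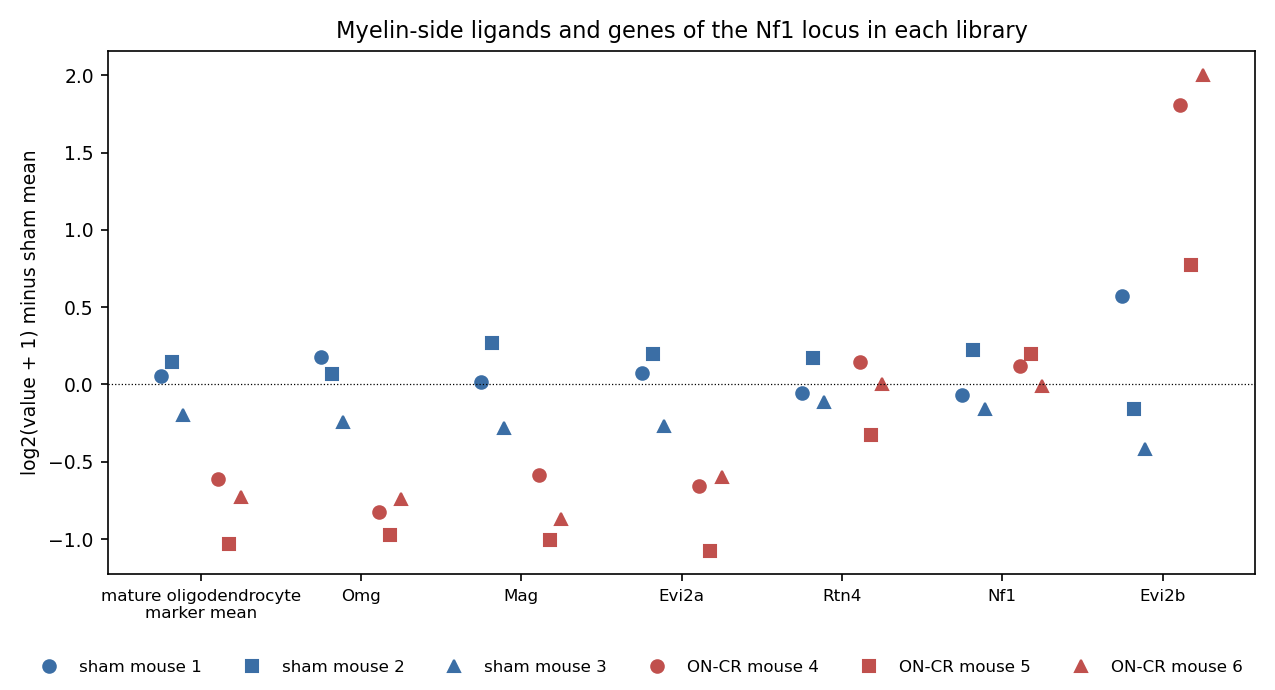
Log2(value + 1) of each library minus the sham mean (vertical axis) for the mean of 12 mature oligodendrocyte markers, the ligand genes Omg, Mag and Rtn4, and Evi2a, Nf1 and Evi2b. Each symbol is 1 mouse. All ON-CR symbols lie below all sham symbols for the marker mean, Omg, Mag and Evi2a, above them for Evi2b, and among them for Rtn4 and Nf1.

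Among other genes of the myelin side, 5 of 6 were called lower and 0 higher, with a median log2 fold change of -0.89, against 1.13% of all genes called lower. Mag, a sialic acid-binding lectin of the innermost myelin membrane and a further ligand of the Nogo receptor, had values of 22975, 27286 and 18676 in the sham mice and 15133, 11308 and 12431 in the ON-CR mice. All ON-CR values of Mag lay below the sham values, and its log2 fold change was -0.82 (SE 0.16, limma adjusted p = 0.0320). Mbp, the basic protein that compacts the cytoplasmic faces of myelin, fell by 1.42 on the log2 scale (limma adjusted p = 0.0117). Mobp, another protein of compact myelin, fell by 1.21 (adjusted p = 0.00550), and Mog, an immunoglobulin-like protein of the outermost lamella, by 0.90 (adjusted p = 0.0214). Cntnap1, an axonal protein of the paranode, stood at -0.15 (adjusted p = 0.862). These 5 calls became 2 without sham mouse 1, and 0 without sham mouse 2 or without ON-CR mouse 6. The 5 genes called are also among the 12 oligodendrocyte markers above, so they are not separate evidence of a change in those cells.

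The Nf1 intron that holds Omg also holds Evi2a and Evi2b, and Evi2, which spans exons of both. In the longest coding Nf1 transcript, with 58 exons, it is intron 36, at chr11:79475884-79535602 (59719 bases), and all of these genes are read on the strand opposite to Nf1. Omg shares no exon bases with Nf1. Nf1, the gene of the Ras-GTPase activating protein neurofibromin, had values of 364, 447 and 343 in the sham mice and 416, 438 and 380.04 in the ON-CR mice. These overlapped, and its log2 fold change was 0.10 (SE 0.15, limma adjusted p = 0.798), although the floxed allele is present in both groups and the value checks no label. Evi2a, a transmembrane protein gene, had values of 4132, 4497 and 3264 in the sham mice and 2489, 1865 and 2597 in the ON-CR mice, and it fell by 0.78 on the log2 scale (SE 0.16, limma adjusted p = 0.0390). Evi2b, which is known from blood cells, had values of 54.7, 32.5 and 27.1 in the sham mice and 129.7, 63.0 and 149 in the ON-CR mice. Every ON-CR value of Evi2b was above every sham value, but with a log2 fold change of 1.53 (SE 0.38) it did not pass (limma adjusted p = 0.0783). Evi2 stood at 0.03 (adjusted p = 0.985). Of the 5 genes of the locus, Omg included, 2 were called, and this count was 0 without sham mouse 1, without sham mouse 2 or without ON-CR mouse 6, and 1 when ON-CR mouse 4 was left out.

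Over the 6 libraries, the genes whose log2(value + 1) was most like that of Omg, among 14435 genes with a mean value of at least 50, were Acly, Stmn1 and Peg12, with Pearson r of 0.9998, 0.9986 and 0.9959. Acly, the ATP citrate lyase that makes cytosolic acetyl-CoA for lipid synthesis, and Stmn1, a microtubule-destabilizing protein, were also called lower, with log2 fold changes of -0.54 (limma adjusted p = 0.0398) and -0.73 (limma adjusted p = 0.0150). Peg12, an imprinted gene, had a log2 fold change of -0.55 that did not pass (adjusted p = 0.193). The 6 points fall into the 2 groups of mice and share their libraries, so these r values are a description only.

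Rtn4r, the gene of the Nogo receptor (NgR1), was near the limit of these libraries. It lies at chr16:18127642-18152408 on the plus strand. Its values were 14.9, 30.1 and 21.6 in the sham mice and 18.9, 15.7 and 9.35 in the ON-CR mice, from 9 to 34 estimated reads a library. The groups overlapped, and the log2 fold change was -0.56 (SE 0.45) with a 95% interval from -1.57 to 0.45 and a limma adjusted p of 0.603. At this depth the interval spans no difference and changes in both directions.

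Rtn4rl1 encodes NgR3, a relative of the Nogo receptor that binds chondroitin sulfate proteoglycans, and lies at chr11:75193783-75267769 on the plus strand. Its values were 57.3, 54.9 and 41.3 in the sham mice and 71.8, 54.5 and 55.0 in the ON-CR mice. The highest value was that of ON-CR mouse 4, and the other 2 ON-CR values fell among the sham values. The log2 fold change was 0.24, with a 95% interval from -0.37 to 0.85 (limma adjusted p = 0.737).

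Lingo1, the leucine-rich repeat co-receptor that completes the Nogo receptor complex and also restrains oligodendrocyte maturation, lies at chr9:56618475-56796468 on the minus strand. Its values were 269.5, 151 and 112 in the sham mice and 174, 258 and 158 in the ON-CR mice. One library in each group stood high, sham mouse 1 and ON-CR mouse 5, and the groups overlapped. The log2 fold change was 0.21 (95% interval -0.48 to 0.91, limma adjusted p = 0.804), and without sham mouse 3 it was -0.07 (adjusted p = 0.941). The libraries with the highest Lingo1 were also those with the most neuronal RNA. The sum of 11 neuron markers was 7087, 3755 and 3267 in the sham mice and 3183, 15569 and 4382 in the ON-CR mice, with 0 of the 11 called. Rtn1, a neuronal reticulon named here after its values were seen, was likewise highest in ON-CR mouse 5 (4962) and sham mouse 1 (3055). The part of neuronal RNA in the level of Lingo1 was not tested.

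**Figure D4:**
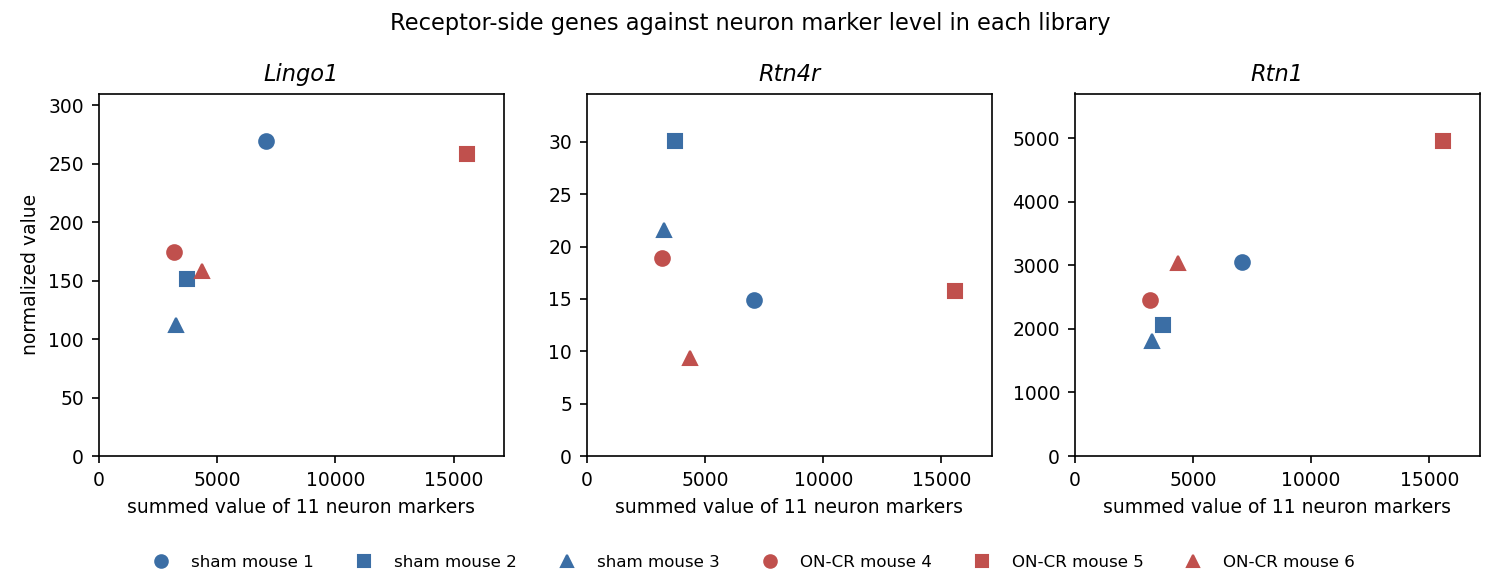
Normalized values (vertical axes, from 0) of Lingo1, Rtn4r and Rtn1 against the summed normalized value of 11 neuron markers (horizontal axes) in the 6 libraries. The right-most points are ON-CR mouse 5 and sham mouse 1, where Lingo1 and Rtn1 were at their highest and Rtn4r was not.

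The other co-receptors did not pass the test either. Ngfr, which encodes p75NTR, had values of 308, 309 and 302 in the sham mice and 327, 249.5 and 279 in the ON-CR mice, with a log2 fold change of -0.11 (limma adjusted p = 0.786). Tnfrsf19, which encodes TROY, had values of 645, 658 and 574 in the sham mice and 519, 426 and 415 in the ON-CR mice. Its groups did not overlap, and its log2 fold change of -0.47 (SE 0.14) missed the threshold (limma adjusted p = 0.130). Of the 5 genes in the list of co-receptors and LINGO relatives 0 were called, with a median log2 fold change of -0.43. Of the 5 genes for other ligands and modulators of Nogo receptors 0 were called, and Crtac1, whose product LOTUS blocks the Nogo receptor, stood at 0.13 (adjusted p = 0.934). Of 4 further receptors of the same ligands 0 were called, with a median of 0.13. Of the 3 other reticulon genes 0 were called as well.

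Lilrb4a rose after ON-CR, but most of its sequence is shared with an overlapping gene model, so its coding sequence is shown before its values. The gene encodes an inhibitory immunoglobulin-like receptor of myeloid cells and mast cells and lies at chr10:51490956-51496611 on the plus strand. Directly before it, at chr10:51480632-51486703 on the same strand, lies Lilr4b, and the gene model Gm49339 runs over both and shares 1846 exon bases with Lilrb4a. Of the 1554 stretches of 50 bases in the Lilrb4a transcripts, 94.5% also occur in transcripts of other annotated genes, and 92.5% occur in Gm49339. Of the 1831 such stretches of Lilr4b, 24.1% occur in Lilrb4a, so at this length most of Lilr4b can be told apart from Lilrb4a. The coding sequences of Lilrb4a (1005 bases) and Lilr4b (909 bases) differed at 36 of 907 aligned bases, an identity of 96.0%. The following 120 bases, from the GENCODE annotation of GRCm38, show how similar both are: capitals mark the 6 bases at which they differ. The first is chr10:51491434-51491553 on the plus strand, the second chr10:51481140-51481259 on the plus strand.
Lilrb4a: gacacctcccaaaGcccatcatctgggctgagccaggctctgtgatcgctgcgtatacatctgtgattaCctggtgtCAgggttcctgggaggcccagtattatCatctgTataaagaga
Lilr4b: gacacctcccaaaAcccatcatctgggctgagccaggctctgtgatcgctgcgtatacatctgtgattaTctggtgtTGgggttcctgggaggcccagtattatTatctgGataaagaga

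The value of Lilrb4a was 61.5, 29.4 and 70.5 in the sham mice and 207, 144 and 152 in the ON-CR mice. Every ON-CR value was at least 144, and no sham value was above 70.5. The sham mean was 53.8 ± 21.6 and the ON-CR mean 168 ± 34.6 (SD, n = 3 each). On the log2 scale the difference was 1.70 (SE 0.33; 95% interval 0.96 to 2.43), or 3.24-fold (95% interval 1.94 to 5.40), with a limma adjusted p of 0.0303 and an exact permutation p of 0.1. The call held only in the fit without ON-CR mouse 5 among the 6 leave-one-out fits. The limma adjusted p was 0.0815 without sham mouse 1, 0.0888 without sham mouse 2, 0.0527 without sham mouse 3, 0.0851 when ON-CR mouse 4 was dropped and 0.176 with mouse 6 dropped, while the log2 fold change stayed between 1.32 and 1.93.

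Values of Lilr4b and of Gm49339 were also apart between the groups. Lilr4b had values of 6.63, 22.8 and 22.0 in the sham mice and 80.4, 41.3 and 94.3 in the ON-CR mice, with a log2 fold change of 2.10 (SE 0.51) that did not pass (limma adjusted p = 0.0704). Gm49339, named here after its values were seen, had values of 11.5, 30.1 and 3.31 in the sham mice and 273, 155 and 248 in the ON-CR mice, a log2 fold change of 4.21 (SE 0.60, limma adjusted p = 0.00733). How the authors' software divided reads that fit more than 1 of these genes is not given in the sources used here.

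The sum of Lilrb4a, Lilr4b and Gm49339 was computed after the data were seen. It does not depend on how counted reads were divided among the 3, but reads left uncounted or given to other genes would change it. The sum was 79.6, 82.3 and 95.8 in the sham mice and 560.3, 339.7 and 494 in the ON-CR mice. The sham sums lay close together, whereas the share of the sum listed under Lilrb4a was 77.2%, 35.7% and 73.6% in the same 3 mice and 37.0%, 42.3% and 30.8% in the ON-CR mice. Its mean was 85.9 ± 8.67 in sham and 465 ± 113 in ON-CR nerves (SD, n = 3 each), and the difference on the log2 scale was 2.40 (SE 0.21), or 5.26-fold (95% interval 3.80 to 7.29), with a limma adjusted p of 0.000733. Leaving out each mouse in turn gave log2 fold changes from 2.25 to 2.61 and limma adjusted p values from 0.000101 to 0.0328, so the sum stayed called in all 6 of these fits.

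**Figure D5:**
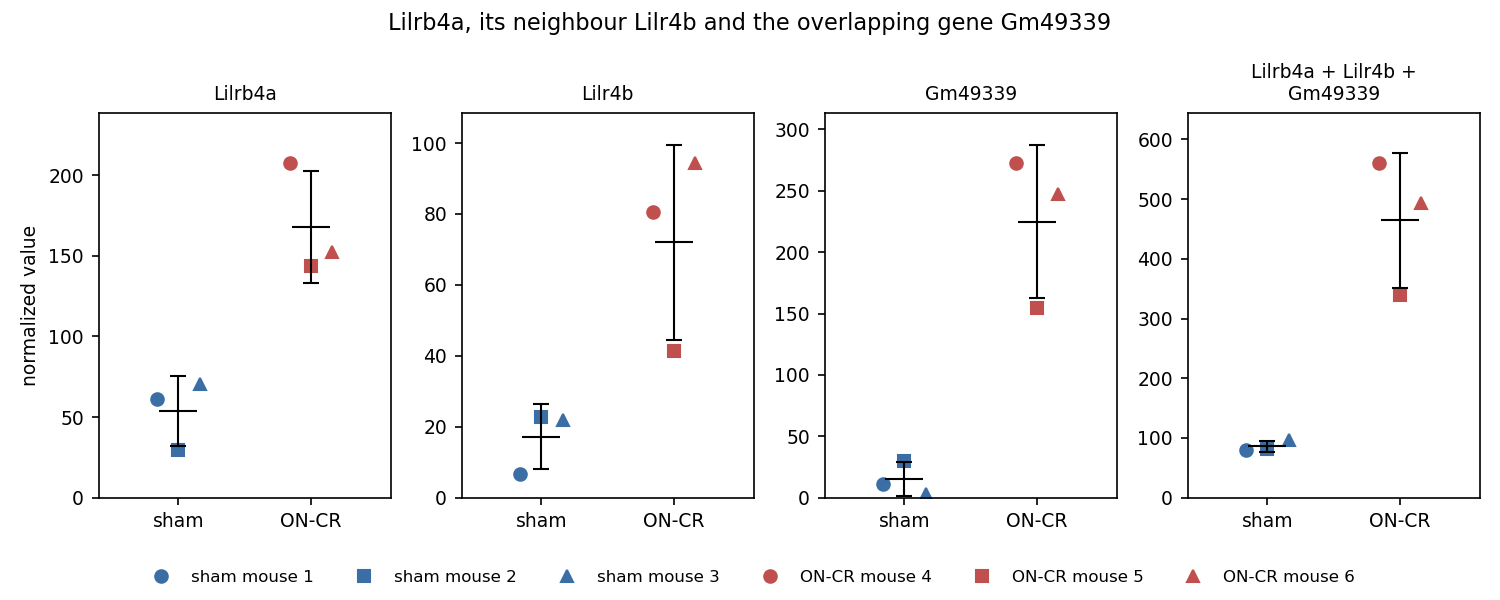
Normalized values (vertical axes, linear, from 0) of Lilrb4a, Lilr4b, Gm49339 and their sum in the 3 sham (blue) and 3 ON-CR (red) libraries, 1 symbol a mouse, with mean and SD. In the last panel the sham sums lie between 79.6 and 95.8 and the ON-CR sums between 339.7 and 560.3.

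Many markers of myeloid cells, but not all, moved in the same direction as Lilrb4a. Of 10 markers of microglia and macrophages 5 were called higher and 0 lower. Their sum ran from 16350 to 20821 in sham libraries and from 22708 to 36521 in ON-CR libraries. Tmem119 and P2ry12 of that list went the other way, with log2 fold changes of -0.27 (limma adjusted p = 0.351) and -0.35 (limma adjusted p = 0.364). All ON-CR values of Tmem119 lay below the sham values. Of 8 markers of activated myeloid cells 7 were called higher and 0 lower, although their sum, dominated by Apoe, ran from 210192 to 262771 in sham and from 194044 to 231782 in ON-CR libraries. The part of these cells in the value of Lilrb4a was not tested. Of the 8 symbols listed for relatives of Lilrb4a 4 were in the table, and 0 of these were called, with a median log2 fold change of 0.99. Pirb, whose product is an inhibitory receptor reported to bind Nogo, Mag and Omg, had values of 71.4, 74.5 and 90.3 in the sham mice and 134, 60.6 and 193 in the ON-CR mice. The groups overlapped because of ON-CR mouse 5, and the log2 fold change was 0.56 (limma adjusted p = 0.515). No gene of the annotation used here carried the symbol Lilrb4b, and no value was read under it.

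The genes most like Lilrb4a over the 6 libraries were Sun2, Igsf10 and Gm7932, with Pearson r of 0.9959, 0.9948 and 0.9947 on the log2(value + 1) scale. Igsf10, a secreted immunoglobulin superfamily protein, was called higher, with a log2 fold change of 0.88 (limma adjusted p = 0.0485). Sun2, a protein of the inner nuclear membrane, stood at 0.40 (adjusted p = 0.355) and Gm7932 at 1.49 (adjusted p = 0.0545). None of the 3 is a relative of Lilrb4a, and with 6 libraries in 2 groups these values are a description.

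Rhoa, the GTPase on which the inhibitory signals converge, lies at chr9:108306129-108337934 on the plus strand. Its values were 7247, 6805 and 6817 in the sham mice and 6792, 5648 and 7343 in the ON-CR mice. ON-CR mouse 5 was lowest and ON-CR mouse 6 highest, with the sham values between. The log2 fold change was -0.08 with a 95% interval from -0.35 to 0.18 (limma adjusted p = 0.792). It was 0.04 when values were scaled by library size only and 0.02 without ON-CR mouse 5. Of the 50-base stretches of Rhoa, 21.8% also occur in transcripts of other annotated genes, so part of its reads may be uncertain.

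Rock2, the kinase that RhoA activates and that phosphorylates myosin phosphatase and LIM kinases, lies at chr12:16894895-16987823 on the plus strand. Its values were 1065, 1255 and 1462 in the sham mice and 1774, 1607 and 1566 in the ON-CR mice. The lowest ON-CR value was above the highest sham value. The means were 1261 ± 198 and 1649 ± 110.1 (SD, n = 3 each), and the log2 fold change was 0.40 (SE 0.13; 95% interval 0.10 to 0.70), or 1.32-fold. It did not pass over all genes (limma adjusted p = 0.181, unadjusted p = 0.0146), where 15.6% of all genes had an unadjusted p under 0.05, and the log2 fold change lay between 0.28 and 0.53 in every alternative run. Its relative Rock1 had values of 1501, 1958 and 2119 in the sham mice and 2417, 1928 and 2391 in the ON-CR mice, and these overlapped (log2 fold change 0.28, limma adjusted p = 0.411). Of 12 genes for ROCK1 and effectors of the ROCK kinases 0 were called, with a median of 0.12. For 3 of the 12 the groups were apart, against 21.6% of all genes, and these were singled out after their values were seen. They are Limk1 and Limk2, genes of LIM kinases that phosphorylate cofilin, and Dpysl2, which encodes the ROCK substrate CRMP2. Log2 fold changes were 0.80 for Limk1 (limma adjusted p = 0.168), -0.17 for Limk2 (limma adjusted p = 0.526) and -0.44 for Dpysl2 (limma adjusted p = 0.124).

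Over the whole list of 54 further pathway genes, 50 were in the table, of which 0 were called higher, 5 lower and 45 not called. The 5 called all belong to the myelin side described above. For 14 of the 50 the groups were apart, against 21.6% of all genes, and the median log2 fold change was -0.05, beside 0.03 for all genes.

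Levels of different genes were compared as values per kb of the exons joined over a gene's protein-coding transcripts. In sham nerves the order was Rhoa at 2808 ± 102 per kb, Omg at 1177 ± 173, Rtn4 at 665 ± 69.8, Rock2 at 126 ± 19.8, Lingo1 at 41.7 ± 19.3, Lilrb4a at 37.4 ± 15.0, Rtn4rl1 at 14.5 ± 2.44 and Rtn4r at 11.4 ± 3.94 (SD, n = 3). Lingo1 and Lilrb4a overlapped in that order, as did Rtn4rl1 and Rtn4r. Rtn4 was divided by 6.542 kb joined over 6 transcripts, and Omg by 2.228 kb of 1 transcript. Reads from shorter Rtn4 isoforms would make its value per kb too low. The order of Omg and Rtn4 thus depends on isoforms that were not separated. In ON-CR nerves, Rhoa was again first at 2662 ± 349 per kb, while Omg at 651 ± 52.9 and Rtn4 at 642 ± 105 per kb overlapped. Lilrb4a, at 117 ± 24.1 per kb, then stood above Lingo1 at 46.2 ± 12.6 per kb, and Rtn4r was last at 7.57 ± 2.52 per kb. The ligands Rtn4 and Omg were thus more abundant per kb than the receptor genes in both groups.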

How the data were processed

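The 3 sham and 3 ON-CR libraries were grouped by the sample labels. Per the methods, reads were aligned and counted with Illumina DRAGEN on Ensembl models of mm10, median-normalized in Partek Flow 10.0, and the authors tested them with DESeq2. The values deposited by the authors are this normalized signal, 1 value per gene and library. Division by the value of 1 read left 70.3% to 72.7% of values whole to within 0.05 reads, so no count model was run and the reads serve for depth only, with counting error alone behind the floor of 3 reads.

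The test was limma 3.58.1 (R 4.3.3) on log2(value + 1). It used a mean-variance trend. Adjustment was by Benjamini-Hochberg across the 25755 genes, or across the genes left where a filter was applied or genes were summed. Every adjusted p is from such a fit. Exact permutation tests were two-sided. The scripts were tested on simulated data. The limma p-values rest on the spread between these mice, drawn toward a trend fitted over all genes. Those of the permutation tests use these mice alone.

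The 9 genes and all lists were chosen with earlier results of these data known. Named were those 9, called genes of the pathway lists and the Nf1 locus, 11 further genes fixed by symbol, and the 3 genes most correlated with each called gene. Not every called gene is reported by name here. Positions and transcripts are from GENCODE on GRCm38. Shared 50-base stretches were counted against all annotated transcripts. Whether counting used strand is not given in the sources used here. Alternatives were 3 scalings, 2 filters, 2 pseudocounts, a robust fit, sample weights, no trend and leaving out each mouse. Sums of overlapping genes were added after the data were seen.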

Additional observations from a re-analysis of the deposited data

How the results depend on the processing

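Omg stayed lower and Lilrb4a higher under all alternatives run, including those that leave out a mouse. With the mean-variance trend switched off, the calls fell to 7 of all genes (540 with it), 0 of the 8 genes (2), 0 of the pathway genes (5) and 0 of the Nf1 locus genes (2), and the limma adjusted p was 0.197 for Omg and 0.206 for Lilrb4a. The cause was not tested. Leaving out each mouse gave 67 (without ON-CR mouse 6) to 854 calls among all genes (without ON-CR mouse 5), 0 to 2 among the 8 genes, 0 to 5 among the pathway genes and 0 to 3 in the locus. Among all genes the count was 192 without sham mouse 1, 123 without sham mouse 2 and 258 without sham mouse 3. Of log2 differences that were never called, that of Rtn4 was 0.069 by library size only and -0.16 to 0.076 with each mouse left out (0.02 without sham mouse 2), that of Rhoa 0.043 by library size only and -0.17 to 0.023, and that of Lingo1 -0.071 to 0.56. Scaling by library size moved the median log2 fold change of all genes from 0.03 to 0.15, and the values of Rtn4 and Rhoa under it lay below that median. Relative to oligodendrocyte markers, the difference of Omg ran from -0.11 to 0.021 with each mouse left out and was above 0 without sham mouse 1 (0.0071) or ON-CR mouse 4, while that of Rtn4 ran from 0.68 to 0.77. Limits are 3 mice a group, sex-linked transcripts that differ with surgery and are mixed in ON-CR mouse 4, and few reads for Rtn4r. No paired analysis was possible because the mice carry different numbers in the groups.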

Other observations

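The plasma cell and B cell markers stood apart in a single mouse, ON-CR mouse 6, where the sum of 6 markers was 98013, against 148 to 2103 in the other 5 libraries, and no marker of the list was called. The sum of 5 airway and secretory epithelium markers ranged from 10.97 in ON-CR mouse 4 to 7959 in sham mouse 3, with 0 called.

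Gm37401, a gene model that shares 324 exon bases with Rhoa on the opposite strand and was singled out after its values were seen, was at or under 0.1 estimated reads in all 3 sham libraries and at 10, 2.2 and 51.7 such reads after crush (mice 4, 5 and 6), with a limma adjusted p of 0.0938.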
